A study of Mus musculus with 24 samples.

Results

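Collagen genes were followed as a family in mouse myoblasts in which a subunit of a SWI/SNF chromatin remodelling complex had been depleted. Members were the rows of the count table whose gene symbol was Col, a number, the letter a and a number, and 44 of the 55291 symbols met this rule. By structure they comprised 11 fibrillar, 9 network-forming, 8 beaded-filament and related, 9 fibril-associated (FACIT), 4 transmembrane, 2 multiplexin and 1 anchoring-fibril gene. RNA-seq had been carried out on 4 cell lines in 3 conditions with 2 libraries each, 24 libraries in all. The control line carried a scrambled shRNA (scr), and the others were *Baf180* KD, *Baf250a* KD and *Brd9* KD cells. *Baf180* (symbol *Pbrm1*) is the defining subunit of the PBAF form of the complex, *Baf250a* (*Arid1a*) of the BAF form, and *Brd9* of the non-canonical ncBAF form. Cells of every line, scr included, were proliferating C2C12 myoblasts, an established mouse muscle precursor line, that had been transduced with a lentivirus and selected with puromycin, per the study's methods. They received no added metal (untreated), 100 µM CuSO4 (Cu) or 50 µM ZnSO4 (Zn), for 48 h. The labels name primary myoblasts and a lipofection instead. The methods list 2 shRNAs for a target, and which of them was sequenced was not given in the sources used here, so each line is 1 selected population and its differences from scr cannot be told apart from those of that population.

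Collagens are secreted proteins made of 3 alpha chains wound into a triple helix, and each gene encodes 1 chain. Fibrillar collagens (types I, II, III, V, XI, XXIV and XXVII) build the banded fibrils of connective tissue, and FACIT collagens such as type XII decorate the fibril surface. Type IV collagen forms the network of basement membranes, and type VI collagen, assembled from the products of *Col6a1*, *Col6a2* and *Col6a3* or a related long chain, forms beaded microfibrils around muscle cells and other cells. In skeletal muscle much of the type I, III and VI collagen is made by interstitial fibroblasts, while myoblasts contribute to the basement membrane. Mutations in the 3 type VI genes cause muscular dystrophies and myopathies.

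Counts per library ran from 495778 (*Baf250a* KD in Zn, replicate 2) to 75179394 with a median of 22158430, and the second shallowest library had 12719173. The targeted genes were lower in their own untreated lines than in scr, by edgeR's quasi-likelihood test: the log2 fold change was -0.76 (SE 0.16, adjusted p = 0.00274) for *Pbrm1*, -1.53 (SE 0.10, adjusted p = 5.31e-08) for *Arid1a* and -0.76 (SE 0.13, adjusted p = 0.006) for *Brd9*. Among 8 myoblast markers, the summed level ran from 3440 to 5040 CPM (counts scaled to a common library total of 1000000) in scr, 2360 to 2880 in *Brd9* KD, 2190 to 2400 in *Baf180* KD and 1570 to 1720 in *Baf250a* KD, and all 8 had counts in every line. The largest part of that sum was *Des*, with untreated means of 2370, 1280, 1080 and 823 CPM in the same order of lines. The methods call the replicates biologically independent but do not say whether they came from separate transductions, which the p-values therefore may not cover. In a bulk sample, fewer cells of a type and less RNA per cell cannot be told apart.

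Collagen transcripts made up a larger share of all counts in each KD line than in scr. In scr they were 0.304% to 0.382% of the counts of a library (median 0.327%, n = 6). The share was 0.399% to 0.471% (median 0.441%) in *Brd9* KD, 0.664% to 0.766% (median 0.694%) in *Baf180* KD and 1.45% to 1.69% (median 1.62%) in *Baf250a* KD. The 4 ranges did not overlap, and the order scr, *Brd9* KD, *Baf180* KD, *Baf250a* KD held in every condition. No test was made of this sum. It rests on few genes, because 9 members held 92.5% of all collagen counts.

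**Figure D1:**
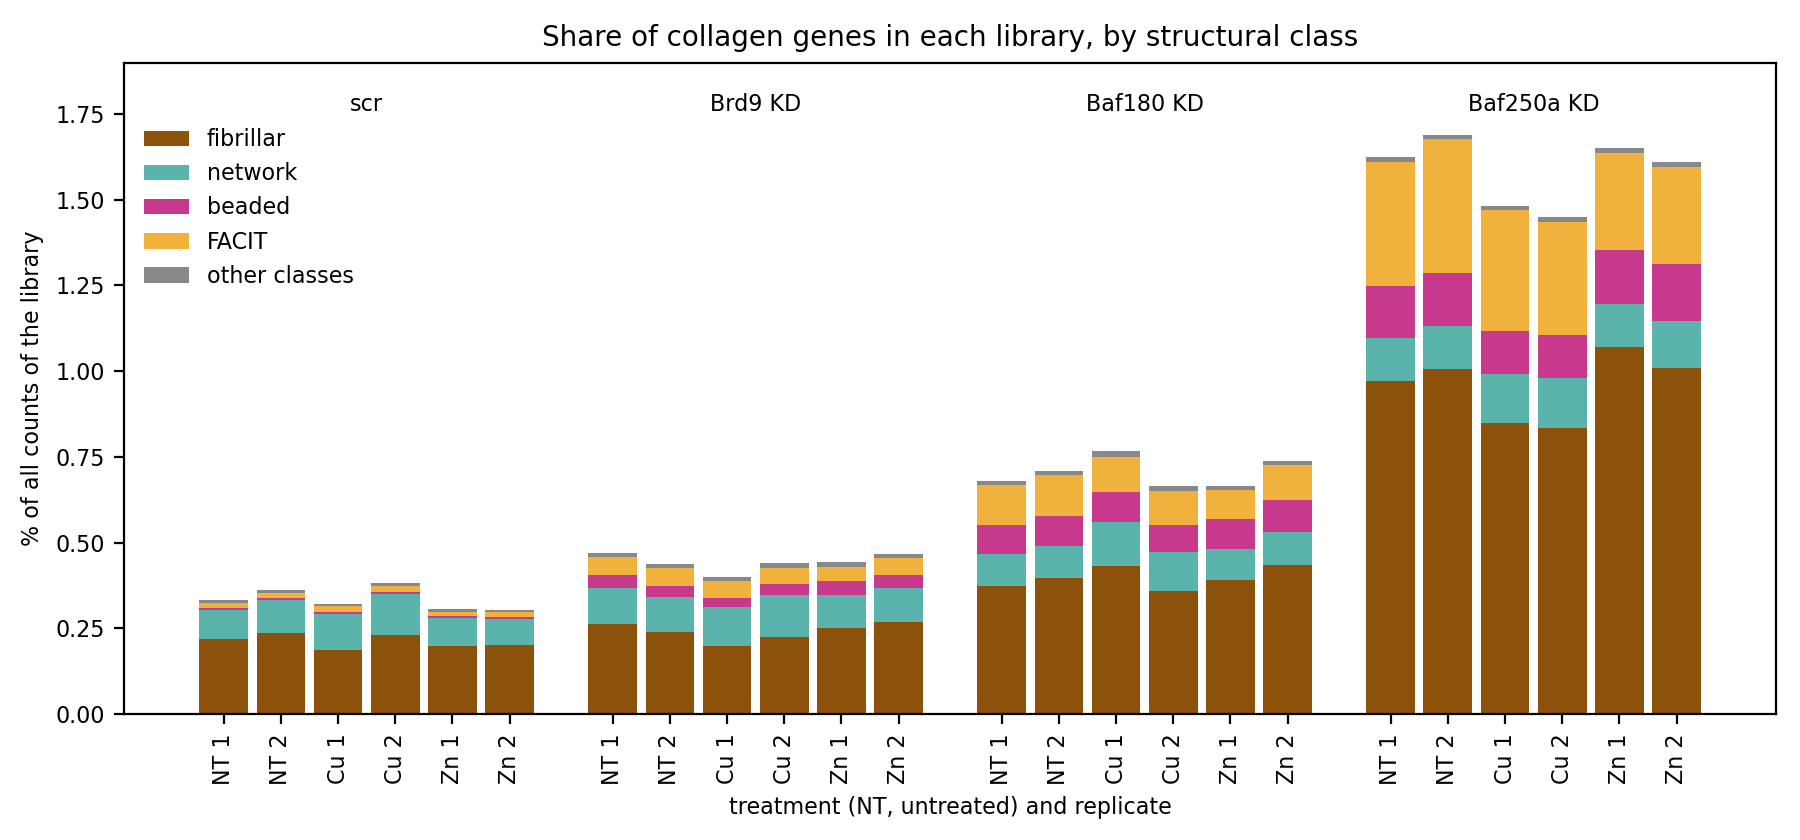
Share of all counts taken by the 44 collagen genes (y axis, percent) in each of the 24 libraries (x axis: cell line, treatment with NT for untreated, and replicate), with 1 bar a library stacked by structural class. The scr bars end between 0.304% and 0.382% and the *Baf250a* KD bars between 1.45% and 1.69%, and the beaded and FACIT parts are wider in the KD lines.

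The make-up of the collagen counts differed between the lines as well. Fibrillar genes held the largest share in each line, with medians of 65.6% in scr, 55.2% in *Brd9* KD, 56.2% in *Baf180* KD and 59.7% in *Baf250a* KD. Beaded-filament genes, chiefly type VI, held 1.74% of the collagen counts in scr, 7.77% in *Brd9* KD, 12.4% in *Baf180* KD and 9.22% in *Baf250a* KD. The FACIT share was 4.35% in scr, 10.9% in *Brd9* KD, 14.5% in *Baf180* KD and 22.5% in *Baf250a* KD. Network-forming genes moved the other way, from 26.1% in scr to 22.8%, 13.5% and 8.16% in the same order of lines. The summed level of the network-forming genes itself ran from 728 to 1200 CPM (median 956) in scr, 937 to 1260 (median 994) in *Brd9* KD, 889 to 1310 (median 914) in *Baf180* KD and 1250 to 1470 (median 1320) in *Baf250a* KD, so that of these lines only *Baf250a* KD was clear of scr. These shares are a description without a test.

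Levels per kilobase of the longest coding transcript, the scale used whenever levels of different genes are set side by side, put *Col3a1*, the single chain of type III collagen, at the top in all 4 lines. In scr it had 160.0 CPM per kb, followed by *Col5a2* with 71, *Col4a1* with 70.5 and *Col4a2* with 60.8. In *Baf250a* KD *Col3a1* had 498 CPM per kb, and *Col1a1*, *Col1a2* and *Col12a1* came next with 380.0, 328 and 289. In scr *Col1a1* stood at 6.11 and *Col12a1* at 10.7 CPM per kb. Over all libraries 20 members had a mean of at least 5 CPM and 12 of at least 100 CPM, and 23 had a count in all 24 libraries.

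**Figure D2:**
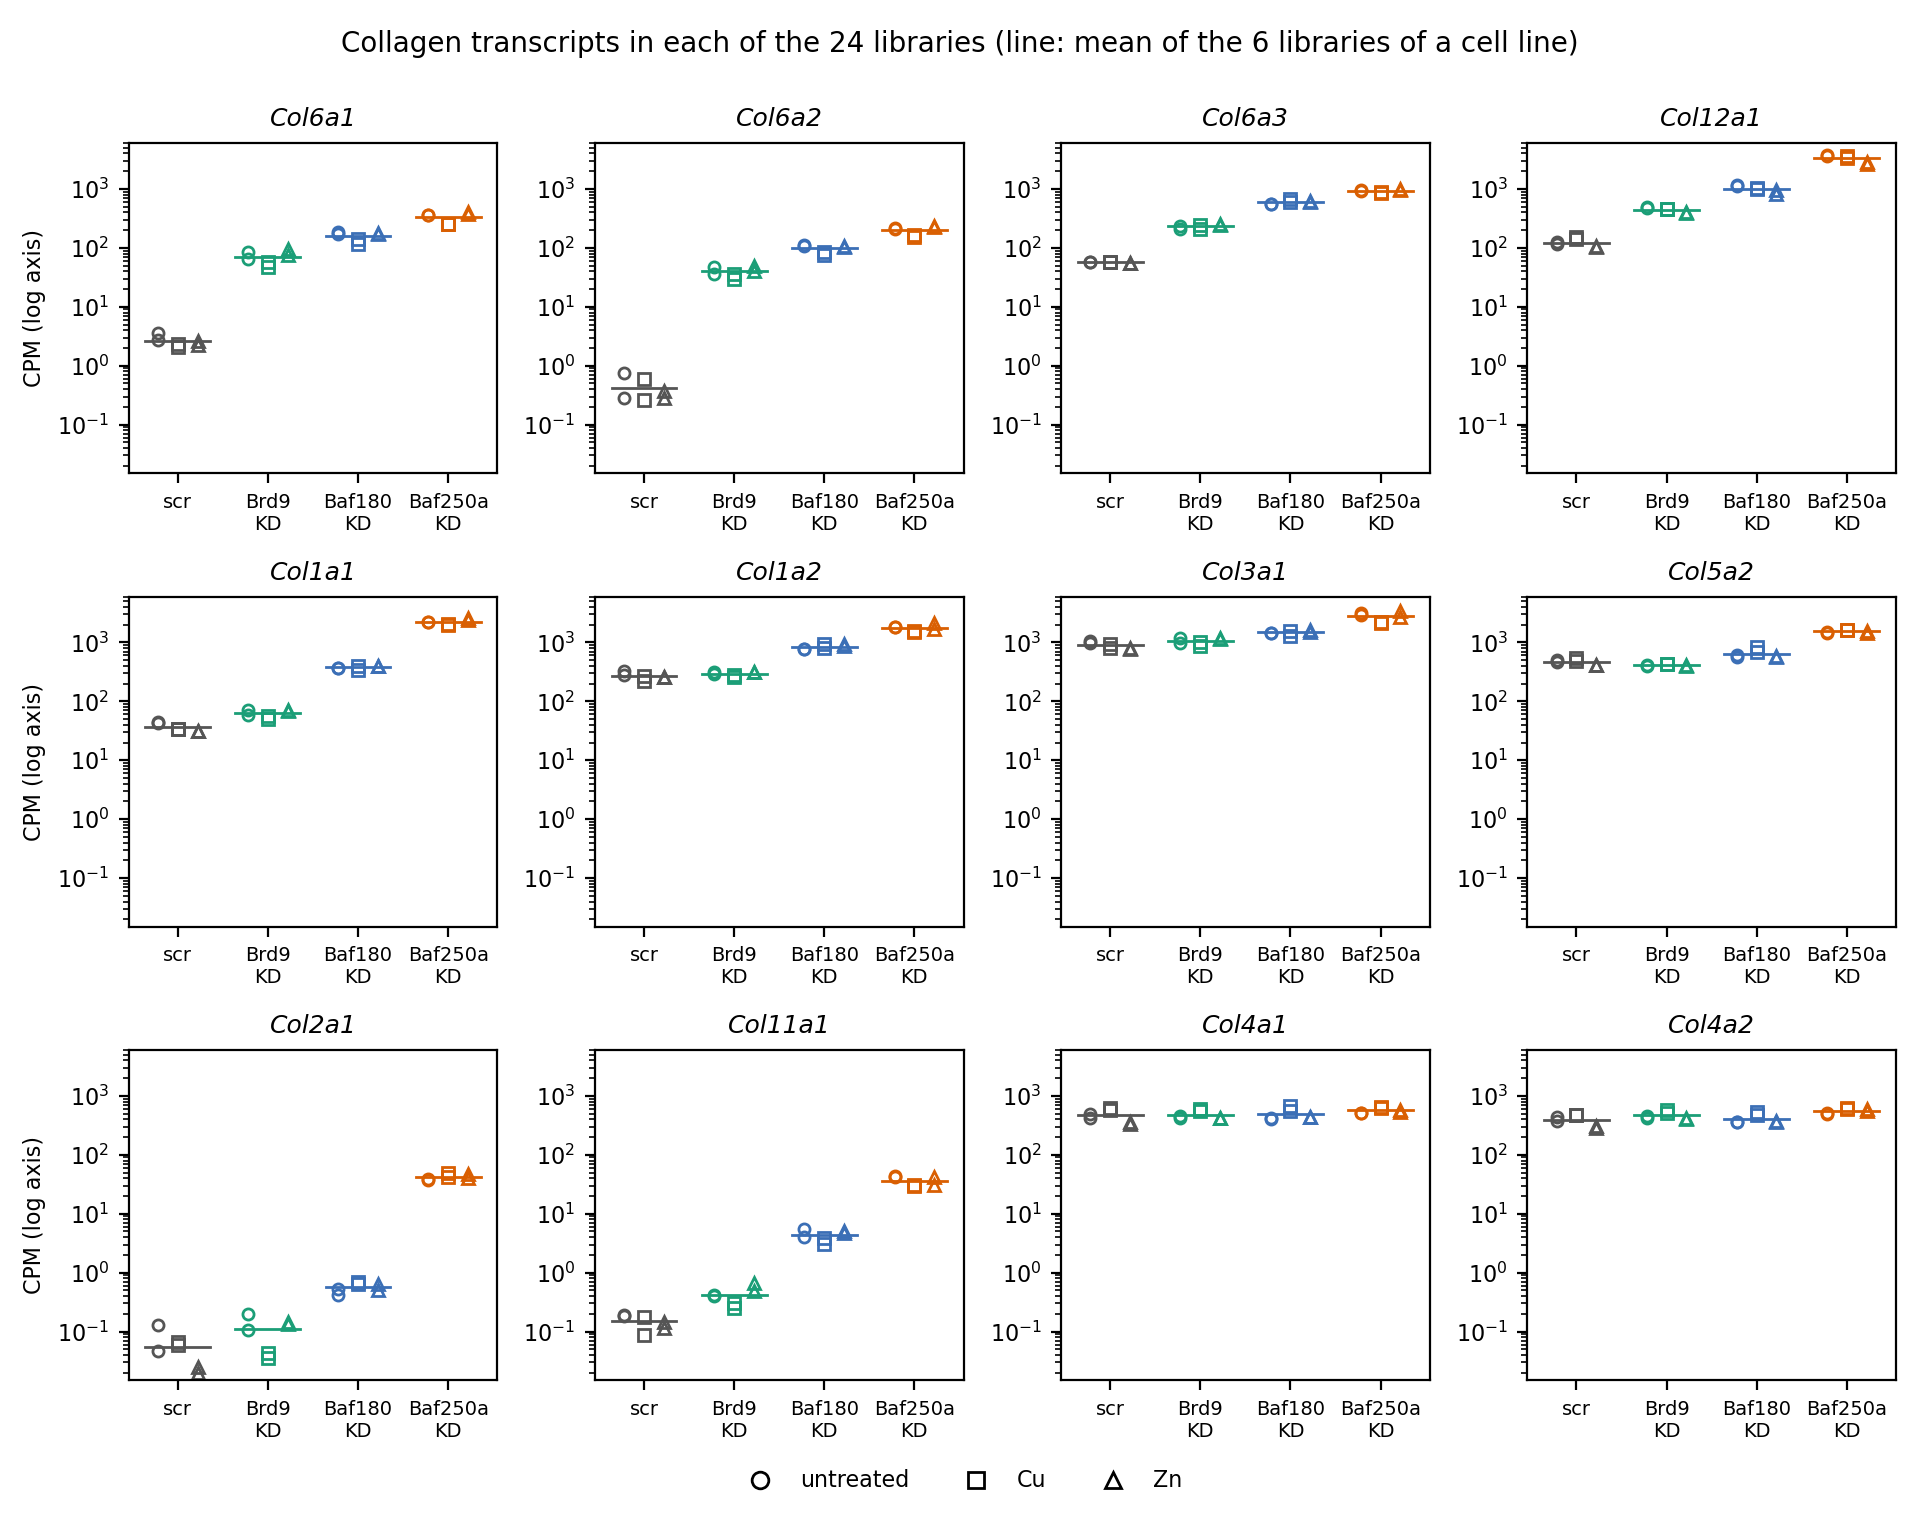
Level of 12 collagen genes in each library (y axis, CPM on a log scale, with 0 drawn at 0.02) by cell line (x axis); circles are untreated, squares Cu and triangles Zn libraries, and the line is the mean of the 6 libraries. The means of *Col6a1*, *Col6a2*, *Col6a3* and *Col12a1* go up in the order scr, *Brd9* KD, *Baf180* KD, *Baf250a* KD, *Col2a1* stands high in *Baf250a* KD, and the points of *Col4a1* and *Col4a2* lie close together across the lines.

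The type VI genes *Col6a1*, *Col6a2* and *Col6a3* were called higher in each KD line in each condition. *Col6a1* (minus strand, chromosome 10, 76708792 to 76726168) and *Col6a2* (minus strand, chromosome 10, 76595762 to 76623630) are neighbours separated by 85161 bp in GRCm38, and *Col6a3* lies elsewhere (chromosome 1, 90765923 to 90843971). The 250 bases upstream of the annotated start of these genes are printed here, 5′ to 3′ on the strand of the gene, with those of *Col4a1*, a gene with little difference between the lines, for comparison. They come from RefSeq for GRCm38.p6, whose table matched 35 of the 44 members and gave them 38 start regions. The gene positions above are those of GENCODE M21, in which *Col6a1* starts farther upstream than in RefSeq. The part of the *Col6a1* window up to 76726168 thus lies inside the gene as placed above. Of *Col6a2* the start farther upstream is shown. Capitals mark a match on either strand to the TATA box (TATAAA), the CCAAT box, the GC box (GGGCGG), an E-box (CAGCTG) or either of a pair of forms of the core bound by the metal-responsive factor MTF1 (TGCACNC and, differing in one letter, TGCGCNC). None of these motifs contains another.
Col6a1 (chr10:76726045-76726294, minus strand): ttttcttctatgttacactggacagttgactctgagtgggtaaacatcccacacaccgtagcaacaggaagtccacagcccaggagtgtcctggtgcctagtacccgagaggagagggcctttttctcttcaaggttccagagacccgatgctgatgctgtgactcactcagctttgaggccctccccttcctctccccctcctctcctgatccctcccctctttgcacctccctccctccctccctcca
Col6a2 (chr10:76623631-76623880, minus strand): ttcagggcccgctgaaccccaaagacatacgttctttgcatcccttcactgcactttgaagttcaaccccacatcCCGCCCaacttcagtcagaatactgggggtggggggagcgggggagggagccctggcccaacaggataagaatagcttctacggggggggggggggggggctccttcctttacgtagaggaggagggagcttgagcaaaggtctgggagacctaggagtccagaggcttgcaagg
Col6a3 (chr1:90843972-90844221, minus strand): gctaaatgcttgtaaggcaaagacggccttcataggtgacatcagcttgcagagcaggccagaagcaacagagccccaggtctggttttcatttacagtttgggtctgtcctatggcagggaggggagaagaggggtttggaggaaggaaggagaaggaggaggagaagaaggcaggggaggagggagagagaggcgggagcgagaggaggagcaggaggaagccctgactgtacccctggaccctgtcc
Col4a1 (chr8:11312827-11313076, minus strand): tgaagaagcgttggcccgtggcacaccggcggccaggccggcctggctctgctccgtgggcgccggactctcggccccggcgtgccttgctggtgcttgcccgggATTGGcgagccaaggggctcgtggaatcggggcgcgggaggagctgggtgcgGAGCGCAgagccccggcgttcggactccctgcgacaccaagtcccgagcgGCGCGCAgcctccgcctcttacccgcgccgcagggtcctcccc
In these windows *Col6a1* and *Col6a3* held no match, *Col6a2* held 1 GC box, and *Col4a1* held 1 CCAAT box and 2 matches to the second MTF1 form. The window of the other *Col6a2* start, not printed, held 3 GC boxes. Of all 32851 start regions of the table, 12.4% held the TATA box, 33.8% the CCAAT box, 32.7% the GC box, 13% the E-box, and 10.4% and 12.5% the first and the second MTF1 form. Among the 38 collagen regions the numbers with a match were 5, 13, 22, 6, 4 and 9 in the same order. A match describes letters only, and nothing follows from it on the binding of a factor.

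Of the type VI genes, *Col6a1* and *Col6a2* were low in scr and *Col6a3* was not. *Col6a1* had 2.74 and 3.57 CPM in the untreated scr libraries, from 43 and 77 counts. It had 83.7 and 63.7 CPM in untreated *Brd9* KD, 189 and 171 in *Baf180* KD and 361 and 366 in *Baf250a* KD. All libraries of the KD lines lay above all of scr, and the 3 KD lines did not overlap each other in untreated cells. The log2 fold changes against scr, positive where the KD line was higher, were 4.54 (SE 0.19, edgeR adjusted p = 2.63e-05) in *Brd9* KD, 5.82 (SE 0.15, adjusted p = 2.5e-09) in *Baf180* KD and 6.83 (SE 0.15, adjusted p = 1.23e-11) in *Baf250a* KD. With copper they were 4.57 (adjusted p = 8.67e-05), 5.91 (adjusted p = 4.67e-08) and 6.93 (adjusted p = 5.95e-07) in the same order, and with zinc 5.09 (adjusted p = 9.02e-07) and 6.08 (adjusted p = 1.12e-08) in *Brd9* KD and *Baf180* KD. For *Baf250a* KD in zinc the estimate was 7.27, with 7.21 to 7.46 when each of the 4 libraries, the shallow one included, was left out in turn.

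*Col6a2* was the collagen gene with the largest fold change among those named here in untreated *Brd9* KD and *Baf180* KD. The untreated scr libraries held 12 and 6 counts of it, 0.764 and 0.279 CPM, against 48.2 and 36 CPM in *Brd9* KD, 112 and 106 in *Baf180* KD and 216 and 213 in *Baf250a* KD. Every KD library was above every scr library, whose highest value over all conditions was 0.764 CPM. As a ratio of summed counts per total, untreated *Brd9* KD exceeded scr 88.7 times (95% interval 55.9 to 150), *Baf180* KD 226 times (143 to 381) and *Baf250a* KD 445 times (281 to 750). The intervals are exact and cover counting error only. In the edgeR fit the log2 fold changes were 6.43 (SE 0.31, adjusted p = 3.63e-05), 7.81 (SE 0.23, adjusted p = 3.21e-09) and 8.77 (SE 0.22, adjusted p = 2.36e-11). *Col6a2* passed the filter on low counts through the KD group alone each time, so these calls could hardly go the other way.

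*Col6a3* had 57.1 and 57 CPM in untreated scr, and thus was not near 0 in the control. Its levels were 236 and 211 CPM in *Brd9* KD, 552 and 550.0 in *Baf180* KD and 921 and 948 in *Baf250a* KD. Again the lines did not overlap. The log2 fold changes were 1.99 (SE 0.10, adjusted p = 3.64e-05), 3.29 (SE 0.11, adjusted p = 4.98e-09) and 4.03 (SE 0.11, adjusted p = 3.62e-11) by edgeR. Per kilobase, *Col6a1* was at 0.108 of the *Col6a3* level in scr (median of 6 libraries) and at 0.752, 0.707 and 0.938 in *Brd9* KD, *Baf180* KD and *Baf250a* KD, so the chains came closer to each other in the KD lines. The *Col6a2* to *Col6a1* ratio was 0.131 in scr and 0.503, 0.539 and 0.523 in the KD lines. The other genes of the class, *Col6a4*, *Col6a5*, *Col6a6*, *Col26a1* and *Col28a1*, had a mean under 5 CPM. *Col28a1* reached 0.726 to 1.94 CPM in *Baf250a* KD, the 1.94 from 1 count in the shallow Zn library. In this line *Col28a1* was called higher in untreated cells (3.83, SE 0.63, adjusted p = 0.000206). It passed the filter on low counts through that group alone.

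The genes of types I and III separated *Baf250a* KD and *Baf180* KD from scr more than *Brd9* KD, and type I collagen led among the abundant fibrillar genes. *Col1a1*, which encodes the chain present in 2 copies in type I collagen, had 43.6 and 44.1 CPM in untreated scr, 70.0 and 59.3 in *Brd9* KD, 361 and 370.5 in *Baf180* KD and 2220 and 2259 in *Baf250a* KD. No library of one line reached into the range of the next in untreated cells. The log2 fold changes were 0.58 (SE 0.11, edgeR adjusted p = 0.00813), 3.08 (SE 0.11, adjusted p = 7.21e-09) and 5.67 (SE 0.12, adjusted p = 1.23e-11). *Col1a2*, encoding the partner chain, had 279.7 and 321 CPM in scr, 316 and 290.0 in *Brd9* KD, 775 and 782 in *Baf180* KD and 1800 and 1801 in *Baf250a* KD. Here *Brd9* KD overlapped scr, with a log2 fold change of 0.03 (adjusted p = 0.842), while *Baf180* KD (1.39, SE 0.11, adjusted p = 2.66e-06) and *Baf250a* KD (2.58, SE 0.11, adjusted p = 7.2e-10) were higher by edgeR.

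*Col3a1*, abundant with type I in distensible tissue, had 965 and 1070 CPM in untreated scr, 1190 and 982 in *Brd9* KD, 1436 and 1434 in *Baf180* KD and 2947 and 3110 in *Baf250a* KD. The *Brd9* KD libraries overlapped those of scr, and the other lines lay above. The log2 fold changes were 0.11 (adjusted p = 0.464), 0.51 (SE 0.11, adjusted p = 0.0038) and 1.57 (SE 0.10, adjusted p = 5.37e-08) by edgeR, smaller than for *Col1a1* in *Baf180* KD and *Baf250a* KD.

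The chains of type V collagen, which starts fibrils and limits their width, did not move alike. *Col5a1* had 532 and 564 CPM in untreated scr and 1111 and 1154 in *Baf250a* KD, a log2 difference of 1.05 (SE 0.10, edgeR adjusted p = 1.47e-06). In *Brd9* KD and *Baf180* KD it had 522 and 478 and 531 and 540.2 CPM, with log2 fold changes of -0.12 (adjusted p = 0.348) and -0.02 (adjusted p = 0.914) that did not pass the test. *Col5a2* had 465 and 512 CPM in scr, 416 and 392 in *Brd9* KD, 603 and 565 in *Baf180* KD and 1444 and 1508 in *Baf250a* KD, and passed in *Baf250a* KD (1.60, SE 0.10, adjusted p = 3.94e-08) but not in *Brd9* KD (-0.26, SE 0.09, adjusted p = 0.0662) or *Baf180* KD (0.27, SE 0.11, adjusted p = 0.0586). *Col5a3*, the least abundant of the chains per kilobase in scr, ran from 10.5 to 13.8 CPM (median 13) in scr over all conditions. Its ranges were 31.3 to 45 CPM (median 38.3) in *Brd9* KD, 37.7 to 54.6 CPM (median 47.3) in *Baf180* KD and 21.7 to 40.8 CPM (median 24.2) in *Baf250a* KD. It was called higher in all KD lines without added metal, and *Baf250a* KD, the highest line for types I, III and VI, had the lowest median of the KD lines here. The log2 fold changes were 1.49 (SE 0.13, adjusted p = 0.000262), 1.72 (SE 0.15, adjusted p = 3.7e-06) and 0.76 (SE 0.13, adjusted p = 0.00033).

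Of the genes of types II and XI, the fibrillar collagens of cartilage, *Col2a1* and *Col11a1* were found mainly in *Baf250a* KD, and *Col11a2* was not. *Col2a1* had 2 and 1 counts in the untreated scr libraries, 2 and 3 in *Brd9* KD and 12 and 10 in *Baf180* KD, against 988 and 795 in *Baf250a* KD, where its level was 38.2 and 37.4 CPM. All *Baf250a* KD libraries lay above those of the other lines, and the ratio to untreated scr was 470 with a counting interval of 161 to 2280. *Col11a1* had 3 and 4 counts in untreated scr, 8 and 6 in *Brd9* KD, 124 and 98 in *Baf180* KD and 1070 and 937 in *Baf250a* KD. Each KD line was above scr in every library, *Brd9* KD with 0.249 to 0.662 CPM against at most 0.191 in scr. The untreated ratios of *Baf180* KD and *Baf250a* KD were 25.3 (12.1 to 63.7) and 227 (110 to 565). For *Col2a1* the edgeR log2 fold change was 8.77 (SE 0.28, adjusted p = 8.02e-11) in *Baf250a* KD, and for *Col11a1* it was 4.64 (SE 0.43, adjusted p = 7.76e-06) in *Baf180* KD and 7.78 (SE 0.24, adjusted p = 6.29e-11) in *Baf250a* KD. In these comparisons both genes passed the filter on low counts through the KD group alone, so the calls could hardly go the other way. *Col11a2*, the type XI chain encoded elsewhere, ran from 3.15 to 6.78 CPM (median 3.7) in scr and 3.12 to 5.83 CPM (median 3.62) in *Baf250a* KD. The 5.83 CPM came from 3 counts in the shallow Zn library. *Col11a2* was called lower in untreated *Brd9* KD (-0.85, SE 0.25, adjusted p = 0.0369).

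Of the remaining fibrillar genes, *Col27a1*, a chain of growth cartilage, moved in opposite directions. It ran from 6.1 to 9.17 CPM (median 8.26) in scr, 6.8 to 10.6 CPM (median 9.69) in *Brd9* KD, 2.74 to 5.18 CPM (median 3.9) in *Baf180* KD and 11.7 to 18.4 CPM (median 16.8) in *Baf250a* KD. *Baf180* KD was below scr and *Baf250a* KD above it in every library. In untreated cells the log2 fold change was -0.89 (SE 0.21, adjusted p = 0.00592) in *Baf180* KD and 1.05 (SE 0.15, adjusted p = 6.84e-05) in *Baf250a* KD by edgeR, and the direct comparison of these lines over all conditions gave 2.05 (SE 0.10, adjusted p = 4.44e-13) for *Baf250a* KD against *Baf180* KD. *Col24a1*, a minor fibrillar chain, had a mean under 5 CPM and was called higher in untreated *Baf180* KD (2.14) and *Baf250a* KD (3.74).

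The type IV genes *Col4a1* and *Col4a2* differed less between the untreated lines than the type VI genes. *Col4a1* had 422 and 499.5 CPM in untreated scr, 455 and 421 in *Brd9* KD, 425 and 406 in *Baf180* KD and 514 and 516 in *Baf250a* KD. These ranges lie near one another, and the log2 fold changes of -0.06 (adjusted p = 0.713), -0.13 (adjusted p = 0.373) and 0.16 (adjusted p = 0.213) did not pass the test. *Col4a2*, transcribed from the same stretch of chromosome 8 in the other direction, had 369 and 429.5 CPM in scr, 456 and 427 in *Brd9* KD, 361 and 354 in *Baf180* KD and 515 and 498 in *Baf250a* KD. It was called higher in *Baf250a* KD alone (0.34, SE 0.10, adjusted p = 0.013), with 0.16 (adjusted p = 0.244) in *Brd9* KD and -0.14 (adjusted p = 0.325) in *Baf180* KD by edgeR. In zinc, in contrast, both genes were called higher in each KD line, *Col4a1* by 0.27 in *Brd9* KD, 0.28 in *Baf180* KD and 0.72 in *Baf250a* KD. After a correction for GC content and length the *Baf180* KD values in zinc became -0.06 for *Col4a1* and -0.11 for *Col4a2*. Over all conditions *Col4a2* ran from 286 to 480 CPM in scr and 498 to 634 CPM in *Baf250a* KD, without overlap. *Col4a5*, a chain of the basement membranes of kidney and other organs, ran from 13.2 to 18.6 CPM (median 15.7) in scr, 11 to 16.2 CPM (median 13) in *Brd9* KD, 17.7 to 27.4 CPM (median 19.4) in *Baf180* KD and 19.4 to 21.8 CPM (median 21.1) in *Baf250a* KD. Of the KD ranges only that of *Baf250a* KD was clear of scr.

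Among the short network-forming genes, *Col8a1*, a chain of the sheet under the corneal endothelium and of vessel walls, ran from 71.5 to 95.7 CPM (median 83.7) in scr, 76.6 to 99.9 CPM (median 87.3) in *Brd9* KD, 79.2 to 108 CPM (median 87.8) in *Baf180* KD and 150.0 to 195 CPM (median 166) in *Baf250a* KD. Only the last range is clear of scr. Untreated log2 fold changes were 0.36 (SE 0.12, adjusted p = 0.04995), 0.46 (SE 0.12, adjusted p = 0.00753) and 1.30 (SE 0.11, adjusted p = 9.24e-07), and the *Brd9* KD call held in 1 of 4 fits with a library left out. In zinc *Baf180* KD was called lower than scr (-0.23, SE 0.08, adjusted p = 0.0373). Its partner *Col8a2* had 1 and 3 counts in untreated scr, 19 and 7 in *Brd9* KD, 48 and 80 in *Baf180* KD and 482 and 362 in *Baf250a* KD. Every library of each KD line was above scr. The untreated ratios were 7.16 (2.49 to 28.2) in *Brd9* KD, 25.6 (9.74 to 95.2) in *Baf180* KD and 167 (64.9 to 614) in *Baf250a* KD. *Col10a1*, the gene of hypertrophic cartilage, ran from 0.148 to 0.511 CPM in scr and 3.83 to 17.5 CPM (median 6.36) in *Baf250a* KD. The 17.5 CPM came from 9 counts in the shallow Zn library, and 7.98 CPM was the next highest. *Col10a1* was called higher in untreated *Baf250a* KD (3.48, SE 0.33, adjusted p = 1.69e-06). It passed the filter on low counts through that group alone. *Col4a6*, another type IV chain, ran from 0.392 to 0.896 CPM in *Brd9* KD and was called higher there in untreated cells (3.69, SE 0.80, adjusted p = 0.0128), again passing through the KD group alone.

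The FACIT gene *Col12a1*, whose product coats type I fibrils in tendon and muscle connective tissue, followed the order of type VI. It had 123 and 115 CPM in untreated scr, 491 and 466 in *Brd9* KD, 1161 and 1104 in *Baf180* KD and 3586 and 3830 in *Baf250a* KD. The 4 lines did not overlap over any of the 24 libraries. Its log2 fold changes were 2.02 (SE 0.10, edgeR adjusted p = 3.63e-05), 3.27 (SE 0.12, adjusted p = 6.45e-09) and 4.96 (SE 0.12, adjusted p = 2.31e-11). In *Baf250a* KD it was the member with the highest CPM value in any library, 3830, though per kilobase *Col3a1* was higher in that line. *Col16a1*, another FACIT gene, went the other way in *Baf250a* KD: it ran from 10.9 to 19.4 CPM (median 14.8) there against 21.3 to 32.3 CPM (median 24.2) in scr, with a log2 fold change of -0.98 (SE 0.15, adjusted p = 9.34e-05) in untreated cells and -0.25 (adjusted p = 0.106) in zinc. *Col14a1*, which like type XII binds fibril surfaces, ran from 1.94 to 4.42 CPM in *Baf250a* KD, the 1.94 from 1 count in the shallow Zn library. *Col14a1* was called higher in untreated *Baf250a* KD (2.78, SE 0.35, adjusted p = 2.16e-05). It passed the filter on low counts through that group alone.

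*Col18a1*, a multiplexin of basement membranes and the source of endostatin, was higher in each KD line by a modest amount. It had 75.1 and 85.7 CPM in untreated scr, 112 and 97.3 in *Brd9* KD, 108 and 93.7 in *Baf180* KD and 122 and 112 in *Baf250a* KD. The log2 fold changes were 0.40 (SE 0.11, edgeR adjusted p = 0.029), 0.34 (SE 0.11, adjusted p = 0.0328) and 0.54 (SE 0.11, adjusted p = 0.00107), and the *Baf180* KD call held in 1 of 4 fits with a library left out. In zinc the estimates were 0.98 (adjusted p = 6.68e-05), 1.03 (adjusted p = 6.13e-06) and 1.27. The other multiplexin gene, *Col15a1*, ran from 1.56 to 5.83 CPM in *Baf250a* KD and reached at most 0.0637 CPM in scr. The 5.83 CPM came from 3 counts in the shallow Zn library, and 2.30 CPM was the next highest.

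Lower levels in all 3 untreated KD lines were called for *Col7a1* and *Col23a1*. *Col7a1*, whose product forms the anchoring fibrils under epithelia, ran from 5.15 to 11.8 CPM (median 8.65) in scr, 4.43 to 6.34 CPM (median 5.27) in *Brd9* KD, 2.82 to 5.1 CPM (median 3.63) in *Baf180* KD and 1.51 to 2.18 CPM (median 1.78) in *Baf250a* KD. *Baf250a* KD and *Baf180* KD lay below scr in every library, and *Brd9* KD overlapped it. The untreated log2 fold changes were -0.80 (SE 0.23, adjusted p = 0.0308), -1.51 (SE 0.22, adjusted p = 0.00029) and -2.51 (SE 0.22, adjusted p = 8.67e-07). *Col23a1*, a transmembrane collagen with a mean under 5 CPM, ran from 2.37 to 3.82 CPM in scr and reached at most 1.6 CPM in a KD library, and its log2 fold changes were -1.51 (SE 0.35, adjusted p = 0.0155), -1.12 (SE 0.34, adjusted p = 0.022) and -1.52 (SE 0.34, adjusted p = 0.00193) by edgeR.

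In untreated cells the calls over the family were as follows. *Baf180* KD had 13 collagen genes called higher and 4 lower of 28 tested, where 21.7% of all 14851 genes tested were called higher and 19.3% lower. *Baf250a* KD had 23 higher and 3 lower of 33, where 28.9% of all genes were called higher and 28.9% lower. *Brd9* KD had 9 higher and 3 lower of 24, where the shares were 15.1% and 14.1%. The *Brd9* KD calls fell from 12 to 6 without *Brd9* KD untreated replicate 1 and to 7 without replicate 2. The median log2 fold change of the members tested was 0.35 in *Baf180* KD, 1.57 in *Baf250a* KD and 0.17 in *Brd9* KD, beside 0.03, 0.00 and 0.01 over all genes tested. Some members passed the filter on low counts through the KD group alone, which bears on these counts and medians. Of the members above the cutoff in both groups, 9 of 20 were called higher and 4 lower in *Baf180* KD, 13 of 20 and 3 in *Baf250a* KD, and 7 of 19 and 3 in *Brd9* KD. Through the KD group alone 7, 11 and 4 members passed, and 4, 10 and 2 of them were called higher. *Col6a2*, *Col14a1* and *Col24a1* were among them in each line, and *Col8a2*, *Col10a1* and *Col11a1* in *Baf180* and *Baf250a* KD. *Col20a1* joined them in *Baf180* KD, *Col2a1*, *Col6a4*, *Col15a1*, *Col25a1* and *Col28a1* in *Baf250a* KD and *Col4a6* in *Brd9* KD. A call for such a member could hardly be lower, so these calls and their adjusted p carry little weight. The 3 comparisons share the scr libraries. Called higher in all 3 were *Col1a1*, *Col5a3*, *Col6a1*, *Col6a2*, *Col6a3*, *Col8a1*, *Col12a1* and *Col18a1*.

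With copper, 14 members were called higher and 3 lower of 29 in *Baf180* KD, where 14.2% of all genes were called higher and 10.7% lower. *Baf250a* KD had 22 higher and 3 lower of 29, with 21.1% and 20% of all genes. *Brd9* KD had 7 higher and 1 lower of 24, with 6.94% and 5.27%, and 5 called without *Brd9* KD Cu replicate 2. With zinc, *Baf180* KD had 17 higher and 4 lower of 26, with 24.9% and 24.9% of all genes. *Baf250a* KD had 24 higher and 2 lower of 29, with 29.4% and 28.1%. Its 26 calls became 27 without the shallow replicate 2 and 17 without replicate 1, which leaves the shallow library alone. *Brd9* KD had 15 higher and 1 lower of 25 in zinc, with 12.6% and 10.6%, and 8 called without scr Zn replicate 2. Here too some members passed the filter through the KD group alone, all 9 such members of *Baf250a* KD in copper and all 8 in zinc being called higher, 4 of 7 and 5 of 5 in *Baf180* KD, and 1 of 2 and 4 of 4 in *Brd9* KD. Of the members above the cutoff in both groups, 10 of 21 were called higher and 3 lower in *Baf180* KD with copper, 13 of 19 and 3 in *Baf250a* KD, and 6 of 20 and 1 in *Brd9* KD. With zinc these counts were 12 of 21 and 4, 15 of 19 and 1, and 11 of 21 and 1. The type VI genes (of which *Col6a2* passed through the KD group alone each time), *Col12a1*, *Col1a1*, *Col5a3* and *Col18a1* were called higher and *Col23a1* lower in all 9 comparisons of a KD line with scr. For *Baf250a* KD in zinc *Col23a1* passed the filter through scr alone.

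**Figure D3:**
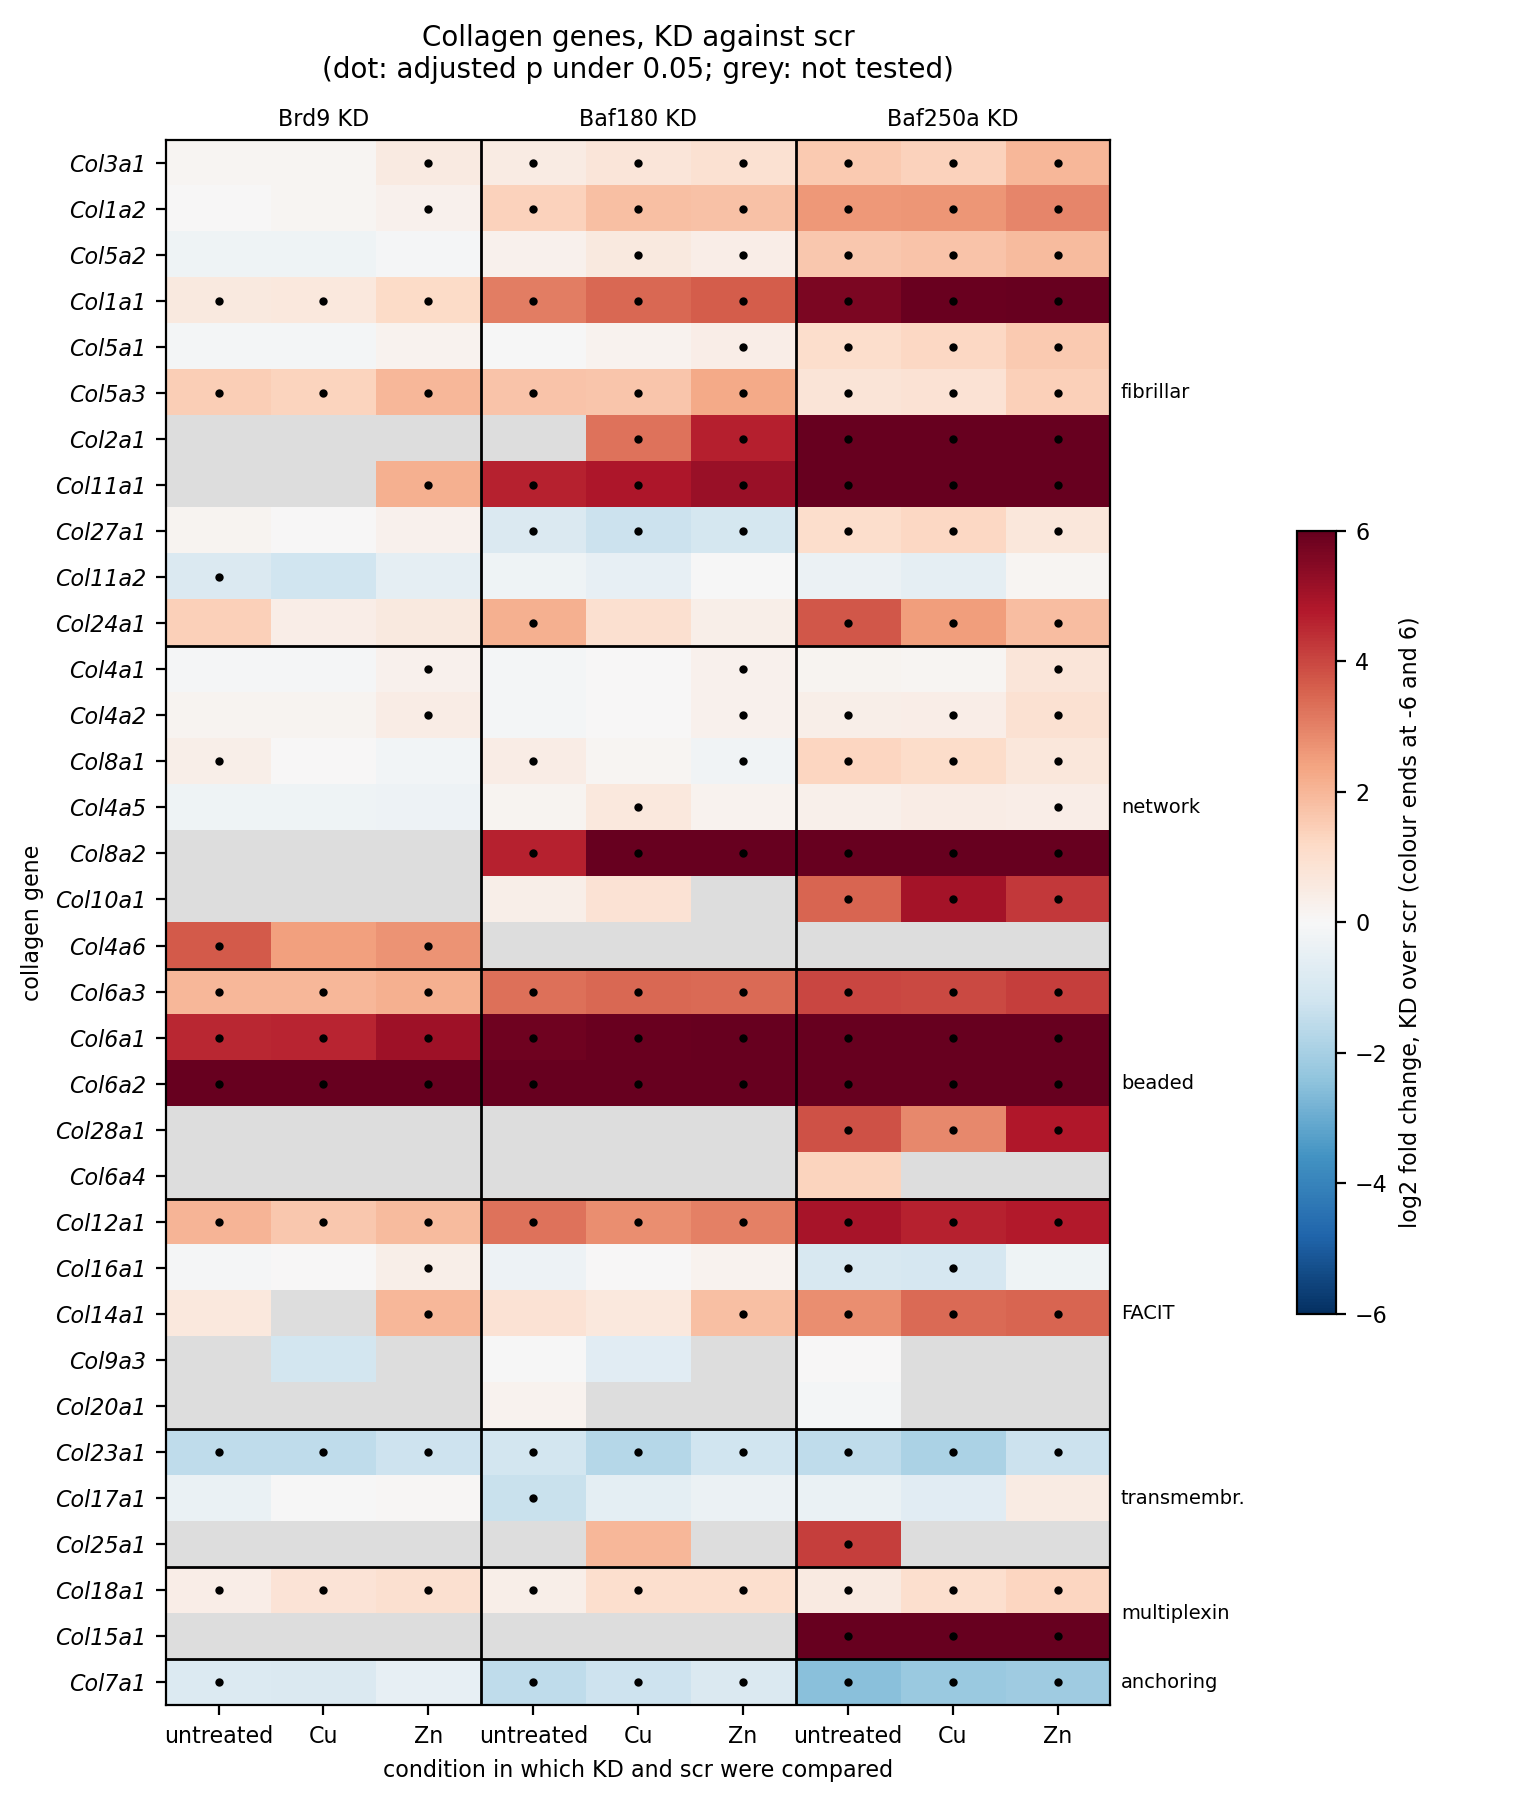
Log2 fold change against scr (colour, ending at 6) of collagen genes in the 3 KD lines without added metal, with Cu and with Zn. Cells with a dot passed an edgeR adjusted p of 0.05, and grey cells were not tested; the type VI genes, *Col1a1* and *Col12a1* are above 0 in all columns and *Col7a1* and *Col23a1* below 0.

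Never tested in any of the 26 comparisons, for low counts, were 10 members: *Col4a3*, *Col4a4*, *Col6a5*, *Col6a6*, *Col9a1*, *Col9a2*, *Col13a1*, *Col19a1*, *Col22a1* and *Col26a1*. Their highest value in a library was 0.309 CPM. *Col13a1*, a transmembrane collagen of the neuromuscular junction, had 0 counts in all 24 libraries, which allows up to 0.0053 CPM over the pooled counts. Members with a mean under 5 CPM that are named with values were chosen after their values were seen, and some others are given by range or call alone. Of these members, *Col9a3*, *Col17a1*, *Col20a1*, *Col25a1* and *Col6a4* have not been described above. *Col17a1*, of the epithelial hemidesmosome, was called lower in untreated *Baf180* KD (-1.35), and *Col25a1*, a transmembrane collagen of neurons and developing muscle, higher in untreated *Baf250a* KD (4.14).

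The KD lines also differed from each other. Over all conditions, *Baf250a* KD exceeded *Baf180* KD in 21 of 34 members and was lower in 3, where 21.5% of all 16524 genes were called higher and 23.7% lower. Against *Brd9* KD it was higher in 26 and lower in 4, with 26.6% and 27.9% of all genes, and *Baf180* KD against *Brd9* KD was higher in 18 and lower in 4, with 20.5% and 17% of all genes. Without the shallow *Baf250a* KD library the calls numbered 24, 30 and 22 in the same order of pairs. The filter over all 24 libraries let members pass that were high in 1 line alone, which bears on these counts. *Col28a1*, for example, had 0.726 to 1.94 CPM in *Baf250a* KD and at most 0.224 in *Baf180* KD and 0.158 in *Brd9* KD. The 1.94 CPM is 1 count in the shallow library. Counts limited to members above a cutoff in both lines were not made for these pairs. *Col1a1* differed by 2.57 (SE 0.06, adjusted p = 2.55e-18) between *Baf250a* KD and *Baf180* KD and by 2.61 (SE 0.06, adjusted p = 1.33e-17) between *Baf180* KD and *Brd9* KD by edgeR. The type VI genes differed less, *Col6a1* by 1.05 and 1.21 and *Col6a3* by 0.64 and 1.35. Genes lower in *Baf250a* KD than in *Baf180* KD were *Col5a3* (-0.86), *Col7a1* (-1.09) and *Col16a1* (-0.74), and they were lower than in *Brd9* KD as well. *Col18a1* differed between *Baf250a* KD and *Baf180* KD by 0.11 (SE 0.07, adjusted p = 0.177), which did not pass.

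Chains that join in one molecule were compared per kilobase within each library, as a description chosen after the values were seen. The ratio of *Col1a1* to *Col1a2*, which assemble 2 to 1 in type I collagen, ran from 0.109 to 0.14 in scr, 0.175 to 0.209 in *Brd9* KD, 0.376 to 0.427 in *Baf180* KD and 1.07 to 1.29 in *Baf250a* KD. The lines did not overlap, and the highest line median was 9.75 times the lowest. *Col4a1* to *Col4a2*, which likewise assemble 2 to 1, stayed between 0.878 and 1.27 in all libraries, with line medians that differed 1.17 times at most. *Col5a1* to *Col5a2* had line medians of 0.797 in scr, 0.966 in *Brd9* KD, 0.724 in *Baf180* KD and 0.597 in *Baf250a* KD. *Col3a1* to *Col1a2* fell into 2 levels, 3.24 and 3.55 in scr and *Brd9* KD and 1.66 and 1.53 in *Baf180* KD and *Baf250a* KD. For *Col11a1* to *Col11a2* the medians were 0.034 in scr, 0.138 in *Brd9* KD, 0.925 in *Baf180* KD and 8.51 in *Baf250a* KD, with few counts of *Col11a1* in scr.

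**Figure D4:**
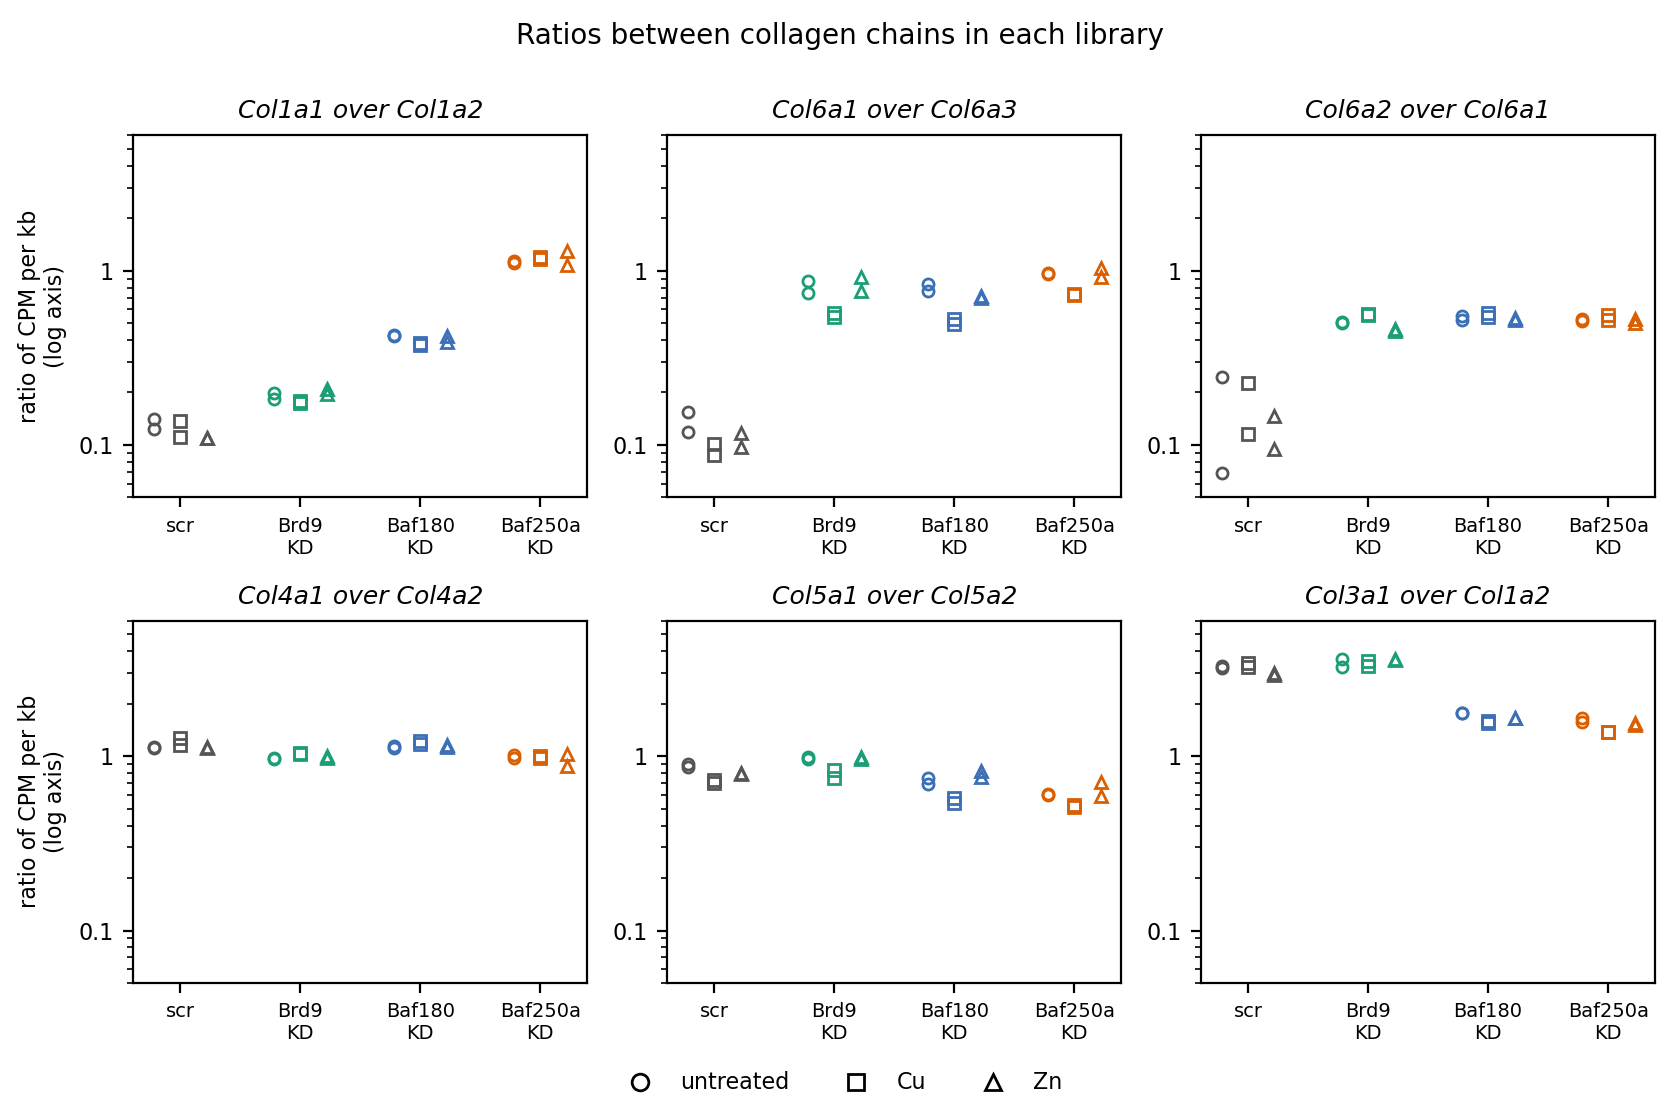
Ratio of the levels per kilobase of chain pairs (y axis, log scale) in each library, by cell line (x axis); circles are untreated, squares Cu and triangles Zn libraries. The *Col1a1* to *Col1a2* and type VI ratios are higher in the KD lines than in scr, while *Col4a1* to *Col4a2* stays between 0.878 and 1.27.

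Few collagen genes were called for added copper. In scr, 0 of 25 members were called by edgeR (6 had an unadjusted p under 0.05, and DESeq2 called 0), where 0.0333% of all genes were called. In *Brd9* KD 0 of 26 were called (12 unadjusted, 2 by DESeq2), with 0.274% of all genes. In *Baf180* KD 4 of 30 were higher and 4 lower, with 5.46% and 8.3% of all genes. Higher were *Col4a1* (0.53, SE 0.09, adjusted p = 0.0117), *Col4a2* (0.44, SE 0.09, adjusted p = 0.0138), *Col5a2* (0.37, SE 0.11, adjusted p = 0.0466) and *Col18a1* (0.50, SE 0.10, adjusted p = 0.0163), and lower were *Col6a1* (-0.51, SE 0.10, adjusted p = 0.0133), *Col6a2* (-0.46, SE 0.09, adjusted p = 0.0123), *Col8a1* (-0.34, SE 0.09, adjusted p = 0.0305) and *Col14a1* (-1.51, SE 0.42, adjusted p = 0.0417). These 8 calls became 2 without *Baf180* KD Cu replicate 1, 5 without its untreated replicate 1 and 0 without untreated replicate 2. In *Baf250a* KD 0 were higher and 4 lower of 30, with 0.626% and 0.646% of all genes: *Col3a1* (-0.46, SE 0.11, adjusted p = 0.0413), *Col6a1* (-0.50, SE 0.10, adjusted p = 0.00396), *Col6a2* (-0.45, SE 0.09, adjusted p = 0.00587) and *Col11a1* (-0.49, SE 0.11, adjusted p = 0.0119). These 4 calls became 1 without Cu replicate 1, 0 without Cu replicate 2 or either untreated library, and 8 without either Zn library. The estimates for *Col6a1* in the lines where it was not called were -0.53 (adjusted p = 0.489) in scr and -0.57 (adjusted p = 0.161) in *Brd9* KD.

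A difference between a KD line and scr in the copper response was called for few members. In *Baf180* KD *Col18a1* (0.72, SE 0.16, adjusted p = 0.0101) was higher and *Col12a1* (-0.44, SE 0.13, adjusted p = 0.0327) lower of 34 tested, with 5.39% and 7.41% of all genes. These became 0 without *Baf180* KD Cu replicate 1, *Baf180* KD untreated replicate 2 or scr untreated replicate 2, 1 without *Baf180* KD untreated replicate 1 or scr Cu replicate 1, and 4 without *Baf180* KD Cu replicate 2 or scr untreated replicate 1. In *Baf250a* KD 0 were called by edgeR (2 unadjusted, 0 by DESeq2), with 0.0121% of all genes, and in *Brd9* KD 0 (3 unadjusted, 0 by DESeq2), with 0.0363%.

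Added zinc lowered 2 of 25 collagen genes in scr, *Col1a1* (-0.40, SE 0.09, adjusted p = 0.0294) and *Col4a2* (-0.34, SE 0.09, adjusted p = 0.0455), and raised 0 (edgeR), where 10.5% of all genes were called higher and 7.13% lower. The 2 calls became 6 without either scr Cu library and 0 without untreated replicate 2 or either Zn library. In *Baf180* KD 0 of 30 were called by edgeR (5 unadjusted, 1 by DESeq2), with 0.0197% of all genes, and in *Brd9* KD 0 of 26 (3 unadjusted, 0 by DESeq2), with 0.0334%. In *Baf250a* KD *Col5a3* was higher (0.45, SE 0.14, adjusted p = 0.033), and *Col8a1* (-0.35, SE 0.11, adjusted p = 0.025) and *Col12a1* (-0.37, SE 0.11, adjusted p = 0.0237) were lower, with 8.85% and 7.02% of all genes. Those 3 calls became 6 without the shallow Zn replicate 2, 1 without Zn replicate 1 and 0 without untreated replicate 2.

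The zinc response was called different from that of scr for 8 of 34 members in *Baf180* KD, 9 in *Baf250a* KD and 3 in *Brd9* KD, in each line a smaller share than over all genes with both directions together. In *Baf180* KD 7 of 34 were higher and 1 lower, with 16.1% and 12.6% of all genes. The higher ones were *Col1a1* (0.63, SE 0.14, adjusted p = 0.00256), *Col4a1*, *Col4a2*, *Col5a1*, *Col5a3*, *Col16a1* and *Col18a1* (0.77, SE 0.16, adjusted p = 0.00195), and *Col8a1* was lower (-0.62, SE 0.13, adjusted p = 0.00262). In *Baf250a* KD the same 7 genes were higher, from 0.53 for *Col5a1* to 0.76 for *Col16a1*, and *Col8a1* (-0.62) and *Col24a1* (-1.87) were lower, with 17.3% and 13.2% of all genes. In *Brd9* KD *Col1a1* (0.60, SE 0.14, adjusted p = 0.0249) and *Col18a1* (0.63, SE 0.16, adjusted p = 0.027) were higher and *Col8a1* (-0.48, SE 0.13, adjusted p = 0.0331) lower by edgeR, with 5.86% and 5.25% of all genes. These 3 comparisons share the scr libraries. The 8 calls of *Baf180* KD became 4 without scr untreated replicate 2 or scr Zn replicate 2, the 9 of *Baf250a* KD 3 without its Zn replicate 1, and the 3 of *Brd9* KD 0 without *Brd9* KD untreated replicate 2, *Brd9* KD Zn replicate 1, scr untreated replicate 2 or either scr Zn library, 5 without *Brd9* KD untreated replicate 1 and 6 without scr untreated replicate 1.

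The trend of level with GC content moved with these differences. The slope of log2 level on GC content, taken on each library's deviation from the mean of all libraries, was 0.09 and 0.33 per 10 percentage points in the untreated scr libraries and -0.27 and -0.35 in the scr libraries with zinc. In *Baf180* KD the slopes were -0.005 and -0.13 untreated and 0.23 and 0.03 with zinc. In *Baf250a* KD they were -0.06 and -0.18 untreated and 0.11 and 0.27 with zinc, and in *Brd9* KD -0.07 and -0.21 and -0.02 and -0.20. After a correction for GC content and length, *Col8a1* stayed called lower in *Baf180* KD (-0.53, edgeR adjusted p = 0.014) and in *Baf250a* KD (-0.51, adjusted p = 0.0115), and *Col24a1* in *Baf250a* KD (-2.11, adjusted p = 0.0276). No gene that was called higher stayed called in any of the 3 lines, and no call stayed in *Brd9* KD.

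**Figure D5:**
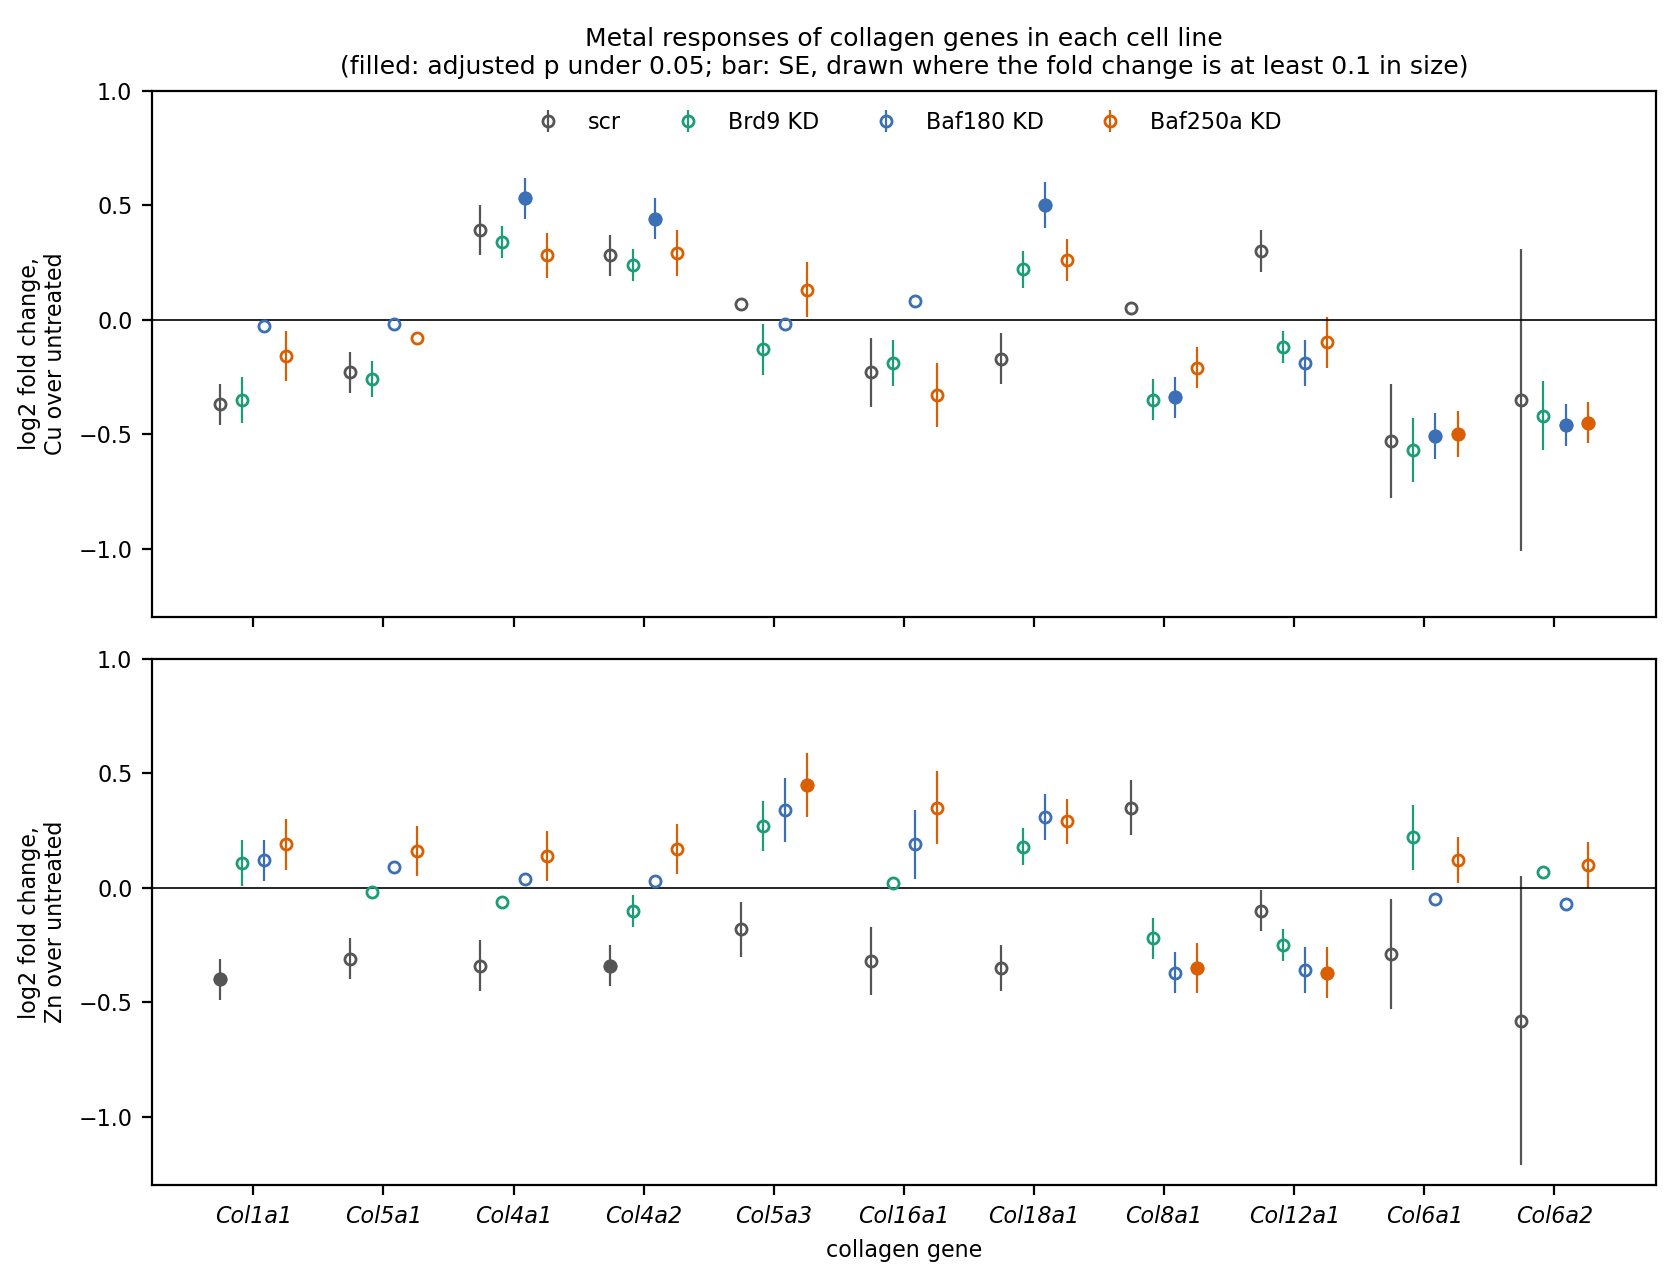
Log2 fold change (y axis) of Cu (upper) and Zn (lower) against untreated cells for 11 collagen genes (x axis) in the 4 lines (colours), with bars of 1 SE where the estimate is at least 0.1 in size and filled points where the edgeR adjusted p was under 0.05. With Zn, scr lies below 0 for *Col1a1*, *Col4a1*, *Col4a2*, *Col5a1*, *Col16a1* and *Col18a1* and above 0 for *Col8a1*.

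Genes that act on collagen chains were counted from lists chosen by function. Over all genes tested, 21.7% were called higher and 19.3% lower in untreated *Baf180* KD, 28.9% and 28.9% in *Baf250a* KD and 15.1% and 14.1% in *Brd9* KD, and the counts of every list here and below stand against these shares. Of 18 genes of chain modification and folding tested, 6 were called higher and 6 lower in untreated *Baf180* KD, 11 higher in *Baf250a* KD and 2 higher and 5 lower in *Brd9* KD. Called higher in all 3 were *P4ha3*, a prolyl hydroxylase subunit (3.41, 4.12 and 2.23 in *Baf180*, *Baf250a* and *Brd9* KD), and *Creb3l1*, a transcription factor for secretory and collagen genes (1.45, 2.07 and 1.03). Of 8 genes of procollagen export, 3 were higher and 1 lower in *Baf180* KD, 2 higher in *Baf250a* KD and 1 higher and 1 lower in *Brd9* KD, a smaller share of higher calls than over all genes in *Baf250a* and *Brd9* KD. *Sec24d*, a coat subunit of the vesicles that leave the endoplasmic reticulum, was higher in all 3 (0.57, 0.89 and 0.35). Of 5 processing genes tested, 3 were higher and 1 lower in *Baf180* KD, 2 and 2 in *Baf250a* KD and 2 and 1 in *Brd9* KD. *Adamts2*, which removes the amino-terminal propeptide of fibrillar procollagens, was higher in all 3 (3.97, 4.91 and 2.20), and its relative *Adamts14* lower (-0.63, -1.94 and -0.29). Cross-linking genes numbered 5, with 2 higher and 1 lower in *Baf180* and in *Baf250a* KD and 1 higher in *Brd9* KD, and *Lox*, lysyl oxidase, was higher in all 3 (1.96, 2.97 and 1.29).

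Of 10 genes of collagen breakdown and its inhibitors tested, 8 were higher in untreated *Baf180* KD, 8 higher and 1 lower in *Baf250a* KD and 5 and 1 in *Brd9* KD, where 21.7%, 28.9% and 15.1% of all genes were higher. The 5 called higher in all 3 were *Mmp2*, a gelatinase (2.38, 3.73 and 2.14), *Mmp16*, *Mrc2*, an uptake receptor for collagen, and the inhibitors *Timp3* (1.41, 3.34 and 0.65) and *Reck*. Enzymes and inhibitors were thus both among the genes called higher, and the gene called lower in *Baf250a* and *Brd9* KD was *Ctsl*, a lysosomal protease. Of 9 receptor genes, 6 were higher and 1 lower, 5 and 2, and 4 and 1 in the same order of lines. *Itga11*, the integrin chain that binds fibrillar collagen on mesenchymal cells, was higher in all 3 (5.66, 8.59 and 3.72), as were *Itga1*, *Cspg4*, a receptor for type VI collagen, and *Antxr1*. *Itga11* had 3 and 4 counts and *Itga1* 5 and 3 in the untreated scr libraries, and both passed the filter through the KD group alone in each line. Of the 7 receptor genes above the cutoff in both groups, 4 were higher and 1 lower in *Baf180* KD, 3 and 2 in *Baf250a* KD and 2 and 1 in *Brd9* KD.

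Marker lists of other cells went in different directions. Summed over 8 fibroblast markers, the level was 54 to 68.4 CPM in scr, 173 to 201 in *Brd9* KD, 432 to 504 in *Baf180* KD and 826 to 907 in *Baf250a* KD, the order of the collagen share. Most of that sum was *Pdgfrb*, with untreated means of 45.4, 147, 392 and 758 CPM in the same order of lines. The fibroblast receptors *Pdgfra* (2.28, 3.61 and 0.87 in *Baf180*, *Baf250a* and *Brd9* KD) and *Pdgfrb* (3.12, 4.06 and 1.71) and *Tcf7l2* were called higher in all 3. *Thy1*, *Tcf21* and *Dpp4* reached at most 0.0674 CPM in a library of any line, scr included, and had 0 counts in all *Baf250a* KD libraries. All 4 fibroblast markers tested were higher in *Baf250a* KD (*Pi16* passing the filter through that group alone), 3 of 4 in *Baf180* KD and 3 of 3 in *Brd9* KD. Tendon cell markers summed to 108 to 130 CPM in scr, 108 to 159 in *Brd9* KD, 235 to 312 in *Baf180* KD and 214 to 303 in *Baf250a* KD, so that *Brd9* KD overlapped scr. *Scx*, a defining factor of tendon cells, was called lower in all 3 KD lines (-0.46, -0.66 and -1.0), and *Egr1*, a transcription factor of tendon and many other cells, higher in all 3 (2.66, 1.93 and 1.24). *Mkx* and *Fmod* were higher in *Baf180* and *Baf250a* KD and *Tnmd* in *Baf250a* KD, all 3 passing the filter through the KD group alone. Of the 8 myoblast markers, 5, 7 and 5 were lower in *Baf180*, *Baf250a* and *Brd9* KD, where 19.3%, 28.9% and 14.1% of all genes were lower, and *Des*, *Cdh15*, *Itga7* and *Chrna1* were lower in all 3. In *Baf250a* KD *Msc* and *Pax7* passed the filter through scr alone. Of the 6 markers above the cutoff in both groups there, 5 were lower. In each line 1 myoblast marker was higher, *Pax7*, a factor of muscle stem cells, in *Baf180* KD (0.92, SE 0.31, adjusted p = 0.033) and *Brd9* KD (1.41, SE 0.27, adjusted p = 0.00845), and *Myod1* in *Baf250a* KD (0.35, SE 0.11, adjusted p = 0.0128). Differentiated muscle markers summed to 2930 to 5440 CPM in scr, 752 to 1650 in *Brd9* KD, 538 to 1270 in *Baf180* KD and 396 to 1000 in *Baf250a* KD. Most of that sum was *Ttn*, the giant sarcomere protein titin, which had 2820 to 5370 CPM in scr and was called lower in all 3 (-1.95, -2.22 and -1.24). Without *Ttn* the sum was 70.2 to 105 CPM in scr, 32.3 to 38.7 in *Brd9* KD, 120.0 to 173 in *Baf180* KD and 59.4 to 74.6 in *Baf250a* KD, so that *Baf180* KD was above scr. In *Baf180* KD 6 of 10 differentiated muscle markers were called higher, *Myog*, *Mymk* and *Myh3* among those above the cutoff in both groups and *Mymx*, *Myh8* and *Actn2* through the KD group alone, and 1 was lower. In *Baf250a* KD 2 of 7 were higher and 3 lower, and in *Brd9* KD 6 of 7 were lower, *Ckm* passing the filter through scr alone. Fat cell markers summed to 15.6 to 23.6 CPM in scr, 18.8 to 26.9 in *Brd9* KD, 41.1 to 52.3 in *Baf180* KD and 39.6 to 51.6 in *Baf250a* KD, with *Cebpa*, a transcription factor of fat cells, higher in all 3 (3.0, 3.02 and 1.49). *Pparg*, the other marker tested, was called in no line (0.37, 0.11 and -0.27, with edgeR adjusted p of 0.0607, 0.492 and 0.177). *Adipoq*, *Fabp4* and *Plin1* reached at most 0.786 CPM in a library, so the higher sums rest on *Cebpa*. Endothelial markers summed to 4.05 to 6.17 CPM in scr and at most 2.21 in a KD library, with *Kdr*, a VEGF receptor, lower in all 3 (-2.70, -4.19 and -2.58). *Kdr* passed the filter through scr alone in *Baf180* and *Baf250a* KD. The part of cell composition or cell state in the collagen values was not tested.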

How the data were processed

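RNA-seq was carried out on 24 samples of mouse myoblasts (4 cell lines in 3 conditions with 2 replicates). The deposited values are raw counts per gene, which the authors obtained from STAR alignments to mm10. They also deposited 14 tables of their DESeq2 comparisons, with fold changes and p-values, which were not used. Titles gave the groups, because the treatment characteristic of the labels goes against them. The labels name primary myoblasts where the methods of the study describe C2C12 cells.

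Everything else was computed from the counts in R 4.3.3. Comparisons used the quasi-likelihood test of edgeR 4.0.16 over all genes, with TMM normalization, filterByExpr and a Benjamini-Hochberg adjusted p under 0.05, with no fold minimum. A KD line was compared with scr on 4 libraries and a metal with no metal on the 6 libraries of a line. Differences between metal responses, and KD lines averaged over the 3 conditions, were compared on all 24. SEs were derived from the fold change and its F statistic. CPM are counts divided by the library total times its TMM factor and multiplied by 1000000, and levels per kb use the longest coding transcript of the gene in GENCODE M21 (GRCm38). In counts simulated for untreated *Baf180* KD, *Baf250a* KD and *Brd9* KD against scr, 66%, 71% and 70.5% of 200 genes with a simulated log2 change of 1 were recovered.

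Collagen genes with a mean of at least 5 CPM were named with values, and others by range or call. Of the related lists, genes called in one direction in all 3 untreated KD lines were named, with members needed to state a count of 5 or fewer. The members, lists and tests were chosen with earlier results of these data known. Alternatives were DESeq2 1.42.0, RLE factors, all genes with at least 1 count, a replicate block, other sets of libraries, a correction for GC content and length (spline with 5 degrees of freedom) and each library left out in turn (84 fits, in which the lone library of a group is assumed to vary like the others).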

Additional observations from a re-analysis of the deposited data

Results flagged for a closer look

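The items below are collagen genes whose response to a metal differed between a KD line and scr by the edgeR interaction test over all 24 libraries. Values are differences of log2 responses, positive where the KD line responded upwards relative to scr. For copper in *Baf180* KD they were -0.44 for *Col12a1* and 0.72 for *Col18a1*.

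For zinc in *Baf180* KD the differences were 0.63 for *Col1a1*, 0.49 for *Col4a1*, 0.47 for *Col4a2*, 0.5 for *Col5a1*, 0.63 for *Col5a3*, 0.63 for *Col16a1*, 0.77 for *Col18a1* and -0.62 for *Col8a1*. In *Baf250a* KD they were 0.65 for *Col1a1*, 0.55 for *Col4a1*, 0.58 for *Col4a2*, 0.53 for *Col5a1*, 0.75 for *Col5a3*, 0.76 for *Col16a1*, 0.71 for *Col18a1*, -0.62 for *Col8a1* and -1.87 for *Col24a1*. In *Brd9* KD they were 0.6 for *Col1a1*, 0.63 for *Col18a1* and -0.48 for *Col8a1*. All of these use the same scr libraries. In scr itself zinc gave -0.40 (adjusted p = 0.0294) for *Col1a1*, -0.35 (adjusted p = 0.057) for *Col18a1* and 0.35 (adjusted p = 0.0743) for *Col8a1* on the log2 scale (edgeR), of which that of *Col1a1* passed the threshold. The slope of level on GC content moved down with zinc in scr and up in *Baf180* KD and *Baf250a* KD. After correction for GC content and length the calls that stayed were *Col8a1* in *Baf180* KD and *Baf250a* KD and *Col24a1* in *Baf250a* KD. *Col24a1* rests on few counts, and its difference ran from -10.72 to -1.66 with single libraries left out.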

How the results depend on the processing

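The calls of collagen genes in the 3 untreated KD lines against scr were added up, a gene counting once for each line that called it. Under DESeq2 49 of these calls stayed and 5 were lost, leaving out any without a DESeq2 adjusted p. After correcting for GC content and length 53 stayed and 2 were lost, and with the replicate block 51 stayed and 4 were lost. For the replicate numbers of the titles the correlation of deviations between groups ran from -0.18 to 0.25. With 2 numbers this cannot decide whether the samples were paired. The block gave 3 collagen genes called for zinc in *Baf180* KD (0 without it) and 0 for zinc in scr (2 without it). With all genes of at least 1 count, 2 were called for zinc in *Baf180* KD, 7 for copper in *Brd9* KD, 1 for copper in scr and 6 for zinc in scr. DESeq2 called 1 for zinc in *Baf180* KD, 2 for copper in *Baf250a* KD, 1 for zinc in *Baf250a* KD, 2 for copper in *Brd9* KD and 6 for zinc in scr. Its median fold change over all genes was 0.40 in *Baf250a* KD in zinc (log2), against -0.01 by edgeR. Fits on all 24 libraries called 0 for copper in *Baf250a* KD, 1 for zinc in *Baf250a* KD, 1 for copper in *Brd9* KD and 8 for zinc in scr. The GC and length correction left 1 for zinc in *Baf250a* KD, 1 for copper in *Brd9* KD, 0 for zinc in scr, 0 for the copper difference of *Baf180* KD from scr, and 1, 2 and 0 for the zinc differences of *Baf180* KD, *Baf250a* KD and *Brd9* KD, the last also 0 on the libraries of both lines alone. It reversed *Col4a1* (-0.06) and *Col4a2* (-0.11) in *Baf180* KD in zinc. Beyond the fits' own construction the cause was not tested. With single libraries left out, calls against scr ran from 13 to 18 (untreated), 12 to 17 (Cu) and 16 to 23 (Zn) in *Baf180* KD, 24 to 28, 23 to 27 and 17 to 27 in *Baf250a* KD, and 6 to 14, 5 to 12 and 8 to 20 in *Brd9* KD. Between KD lines they ran from 21 to 24 (*Baf250a* KD against *Baf180* KD), 21 to 23 (*Baf180* KD against *Brd9* KD) and 24 to 31 (*Baf250a* KD against *Brd9* KD). Metal calls ran from 0 to 7 (Cu, *Baf180* KD), 0 to 8 (Cu, *Baf250a* KD), 0 to 6 (Zn, *Baf250a* KD) and 0 to 6 (Zn, scr), and were 0 to 0 for the other metal comparisons. Differences of responses ran from 0 to 4 (Cu, *Baf180* KD), 4 to 11, 3 to 11 and 0 to 6 (Zn; *Baf180*, *Baf250a*, *Brd9* KD). Without *Baf250a* KD Zn replicate 1, which leaves only the shallow library, *Col24a1* in *Baf250a* KD reversed to -1.41 against *Baf180* KD, -1.06 against *Brd9* KD and -7.54 against scr in zinc, and *Col20a1* to -1.24 against *Brd9* KD, where the highest values with a single library left out were 1.73, 2.13, 1.94 and 1.05. The depth of that library limits every *Baf250a* KD value in zinc.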
